A study of Drosophila melanogaster with 4 samples.

Results

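The genes described here are the 2 partners of the ecdysone receptor, EcR and usp, the coactivator tai, and 7 transcription factors whose genes respond to or act with the hormone, namely br, Eip74EF, Eip75B, Eip78C, ftz-f1, Hr39 and Hr4. They were chosen by name, 10 genes of the 17699 in the count files. Their RNA was measured in the polysome fraction and in the input lysate of Drosophila melanogaster ovaries enriched for germline cysts, with replicates 1 and 3 of each fraction, so that 2 polysome libraries were set against 2 input libraries. Both fractions came from flies with UAS-Dicer2 and NosGAL4, which drove bam RNAi, together with hs-bam, and were dissected 3 to 5 days after eclosion. The nanos driver lowers bam in germ cells only, extra Dicer-2 strengthens the RNAi, and heat shocks at 37°C, a pair of 2 h shocks separated by 4 h at room temperature on each of 2 days, switch on a bam transgene through a promoter that is not limited to the germline. The somatic cells of the ovary remained in the samples and the cysts were not staged. No unshocked or wild-type ovary is analysed here, so neither the heat shock nor the genotype can be told apart from the normal state of these genes.

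Ecdysone, the steroid hormone of insects, acts through a heterodimer of the nuclear receptors EcR and Ultraspiracle (Usp), and the coactivator Taiman joins the hormone-bound receptor. Its first targets were found as puffs on polytene chromosomes. They encode transcription factors, among them Broad, E74 and E75, which turn on or hold back later genes. In the adult ovary the pathway acts in germ cells and in somatic cells, from stem cell maintenance and cyst formation in the germarium to later egg chamber development. Polysome-seq asks which of these mRNAs sediment with several ribosomes, and the input level tells how much mRNA there was to load.

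Gene counts totalled 19452659 and 22647905 in polysome 1 and 3, against 10646651 and 12298615 in input 1 and 3. All 10 germline markers were detected in every library, with summed levels of 1451 and 1854 CPM (counts scaled to a common library size) in the polysomes and 1526 and 2217 CPM in the inputs. Somatic RNA was present as well. The 8 muscle sheath markers summed to 23367 and 6487 CPM in polysome 1 and 3, against 20817 and 27271 CPM in input 1 and 3, with none at 0. The 12 eggshell markers, made by late follicle cells, summed to 2457 and 10240 CPM in polysome 1 and 3, against 1038 and 1074 CPM in the inputs. Polysome 3 stood apart from the other libraries: across genes, its log2 CPM correlated with theirs at 0.786 to 0.802, against 0.841 to 0.873 among the other 3. Fewer cells of a type and less RNA per cell cannot be told apart in such bulk samples.

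These genes have unusually large gene models. In the dm6 annotation the 10 genes spanned a median of 63.3 kb, from 3.51 kb for usp to 114 kb for Eip75B, against a median of 2.84 kb over the 8577 protein-coding genes tested, and 9 of the 10 were above the 90th percentile. Summed exon length had a median of 9633 bases, against 2134 bases over those genes. Annotated 5′ untranslated regions were long in all 10, with a median of 728 bases against 151 bases, and 8 of 10 lay above the 90th percentile. The longest belonged to Eip74EF, with a median of 1793 bases over its 5 transcripts. More than 1 start site was annotated for 9 of the 10, where the median over those genes was 1. Only 3 of the 10 lay above the 90th percentile, and Hr39 had 1 start site. br had 16 transcripts from 9 start sites and Eip75B had 7 transcripts from 7 start sites, and the counts used here sum over all isoforms of a gene.

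The input libraries showed a wide range of levels. In TPM, which scale counts by exon length and library, the 10 genes ran from 41.6 TPM for usp to 0.337 TPM for Eip78C in the mean of both inputs, where the median over tested genes was 24.6 TPM. usp was at 38.8 and 44.3 TPM in input 1 and 3, Eip75B at 26.7 and 52.0 TPM and ftz-f1 at 14.1 and 42.9 TPM. Below these came Hr39 with 9.99 and 14.6 TPM, EcR with 8.02 and 10.8 TPM, br with 4.35 and 13.2 TPM, tai with 7.37 and 8.98 TPM, and Eip74EF with 4.50 and 10.8 TPM. Neighbours in this order overlapped between the inputs for all 8, so no neighbouring pair differed beyond its spread. Farther apart the levels did separate on this scale, since usp and Eip75B were above Hr39, EcR, br, tai and Eip74EF in both inputs. The exon length used sums the exons of all isoforms, which can lower the TPM of genes with many isoforms. It was 20201 bases for br and 9934 for EcR, against 3038 for usp. In CPM, br was at 58.0 and 171 in input 1 and 3, against 77.9 and 86.3 for usp. Hr4, at 0.307 and 1.28 TPM, lay below all 8 in both inputs, and its range overlapped that of Eip78C at 0.551 and 0.122 TPM. By this measure usp mRNA was more abundant than EcR mRNA in all 4 libraries, with 51.6 and 49.2 TPM against 5.30 and 12.8 TPM in polysome 1 and 3.

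**Figure D1:**
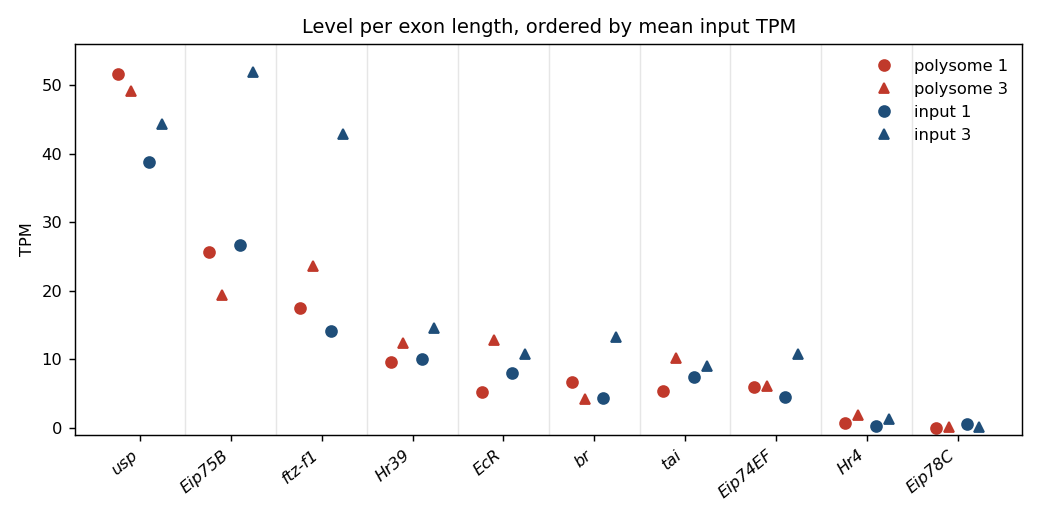
Level of each gene in TPM on the vertical axis, with genes ordered by their mean in the 2 input libraries. Points are single libraries, red for polysome and blue for input, circles for replicate 1 and triangles for replicate 3. The usp points lie close together between 38.8 and 51.6 TPM, and Eip75B and ftz-f1 are highest in input 3.

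The 2 inputs differed from each other in the response genes and little in the receptor. Input 3 over input 1 was 1.11-fold for usp, 1.18-fold for tai and 1.31-fold for EcR. It was 2.95-fold for br, 2.96-fold for ftz-f1, 2.33-fold for Eip74EF and 1.89-fold for Eip75B, while Hr39 was between these at 1.42-fold. Hr4 had the widest difference, 4.05-fold, on 124 counts in input 3 and 29 counts in input 1, with a counting interval (95%, exact) of 2.68 to 6.29. All 9 genes that passed the count filter were higher in input 3, where 53.1% of the 9038 tested genes were, and 4 of 9 were over 2-fold higher, against 14.7% of tested genes. With 1 library on each side this compares those libraries only, and counting intervals do not cover differences between samples of flies.

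Long genes as a class moved the same way. Among the 858 tested coding genes with the longest exon length, above 5958 bases, the median log2 of input 3 over input 1 was 0.74 and 30.2% were over 2-fold higher. It was -0.014 in the 7719 shorter ones. With genes split by genomic span at 18.1 kb, the medians were 0.62 for the longer and 0 for the shorter. The median of the 9 ecdysone genes was 0.92. Reads assigned to no exon on the strand used made up 2.45% and 12.1% of all reads in polysome 1 and 3, and 11.5% and 17.7% in input 1 and 3. They can come from introns, from between genes or from the strand opposite to an exon. Summed marker levels were higher in input 3 than in input 1 for every cell type list, but sums follow the most abundant genes. The median log2 of input 3 over input 1 was -0.18 for eggshell, -0.29 for late germline (oocyte) and -0.057 for hemocyte markers. It was 0.24 for germline, 0.53 for niche and escort cell, 1.07 for early follicle cell, 0.55 for muscle sheath and 0.90 for fat body markers. Early follicle cell markers summed to 770 CPM in input 1 and 1018 CPM in input 3. Niche and escort cell markers summed to 248 and 451 CPM, germline markers to 1526 and 2217 CPM, and eggshell markers to 1038 and 1074 CPM. The part of gene length, of unspliced RNA and of cell composition in the difference between inputs was not tested.

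**Figure D2:**
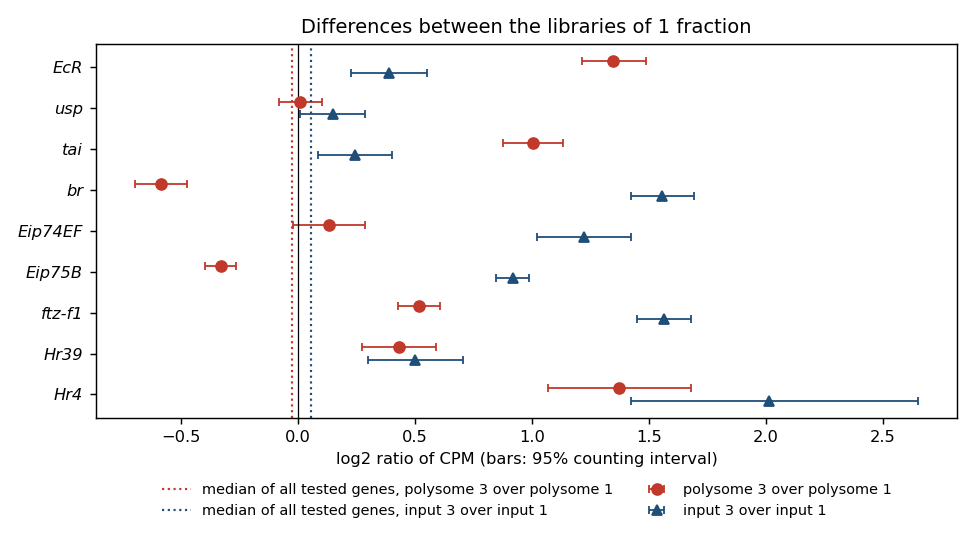
Log2 ratio between the 2 libraries of a fraction for each tested gene, polysome 3 over polysome 1 in red and input 3 over input 1 in blue, with 95% counting intervals and, as dotted lines, the median of all tested genes. usp lies near 0 in both fractions, EcR and tai are high in polysome 3 over polysome 1, and br, Eip74EF, Eip75B and ftz-f1 are higher in input 3 over input 1 than in polysome 3 over polysome 1.

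Set against input, none of the ecdysone genes passed the test in polysomes. By edgeR's quasi-likelihood test 0 of the 9 tested genes had an adjusted p (Benjamini-Hochberg) under 0.05, where percent called over all 9038 tested genes was 0, and 1 had an unadjusted p under 0.05, where 4.68% of tested genes did. That gene was lower in polysomes, as were 2.53% of tested genes at this p, and 0 were higher, where 2.15% were. DESeq2 called 0 of the 9, where it called 0.463% of genes. None was called either with no count filter (0.952% of genes), with the replicate block (0.520%), without polysome 1 (7.24%), without polysome 3 (0.549%) or without input 1 (0.0816%). Of the 9 log2 fold changes 7 were negative and 2 positive, with a median of -0.40 against -0.0032 over all tested genes. Both polysome libraries lay below both inputs for 1 gene, where 18.1% of tested genes did so, and above both for 0 genes, where 17.2% did. An exact permutation test of 2 against 2 libraries cannot give a two-sided p below 0.333, so single genes rest on the fit across all genes.

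**Figure D3:**
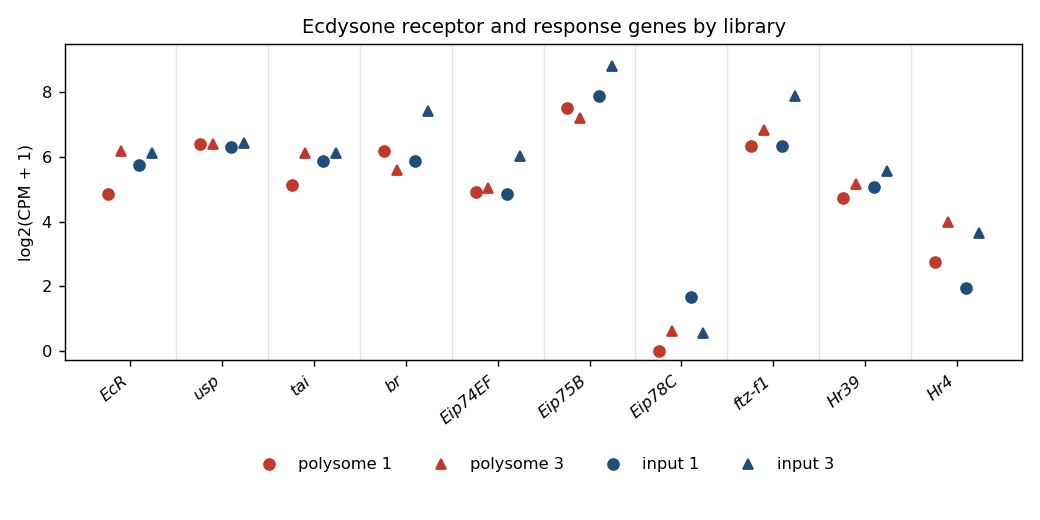
Expression as log2(CPM + 1) for the 10 genes, 1 point per library, with the polysome libraries in red left of the input libraries in blue. Only Eip75B has both polysome points below both input points.

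The receptor partners behaved differently across the libraries. usp (FBgn0003964), the homologue of the vertebrate retinoid X receptor (chromosome X, 2038798 to 2042311), had 82.9 and 83.5 CPM in polysome 1 and 3, against 77.9 and 86.3 CPM in input 1 and 3. These 4 values span a narrow range and the fractions overlap, with a log2 fold change of 0.020 ± 0.39 (SE). EcR (FBgn0000546), the hormone-binding partner (chromosome 2R, 6087873 to 6169087), had 27.9 and 71.0 CPM in polysome 1 and 3, against 52.6 and 68.9 CPM in input 1 and 3. Its level in polysome 1 was the lowest of the 4, and the other 3 lay close together. The log2 fold change was -0.30 ± 0.55, and it was 0.28 without polysome 1 and -1.14 without polysome 3. usp shares 8.72% of its exon length with Actn on the same strand, where reads count to neither gene. Between the polysome libraries 3 of the 9 tested genes, EcR, tai and Hr4, were over 2-fold higher in polysome 3 than in polysome 1, against 15.3% of tested genes.

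tai (FBgn0041092), a coactivator of the p160 class (chromosome 2L, 9166778 to 9250211), had a profile like that of EcR. It was at 33.9 and 68.1 CPM in polysome 1 and 3, against 57.9 and 68.6 CPM in input 1 and 3, again with polysome 1 the low library. The log2 fold change was -0.31 ± 0.50, with 0.16 without polysome 1 and -0.92 without polysome 3. Of all tested genes, tai was the third nearest to EcR by the Euclidean distance of log2(CPM + 1) over the 4 libraries, at 0.313, after Ae2 at 0.184 and Pde11 at 0.293. Nearest to usp were Sec22, RAF2 and Orp8, at distances of 0.092 to 0.158. In 4 libraries many genes share a profile, and such a distance is a description only.

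Eip75B had the smallest p of the tested ecdysone genes for a difference between fractions. The gene (FBgn0000568, chromosome 3L from 17950953 to 18064696) encodes E75, a heme-binding nuclear receptor, and was the most abundant of the 10 in CPM. It was at 183 and 146 CPM in polysome 1 and 3, against 237 and 448 CPM in input 1 and 3. Both polysome values lay below both inputs, as they did for 18.1% of all tested genes. The log2 fold change was -1.06 ± 0.45, with an unadjusted p of 0.0456 and an adjusted p of 0.956 by edgeR's quasi-likelihood test. It stayed negative with each library left out, from -1.45 without input 1 to -0.53 without input 3, and its adjusted p with the replicate block was 0.803.

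The other tested early genes overlapped between fractions, with input 3 above the rest. br (FBgn0283451, chromosome X from 1575132 to 1664869), which encodes the BTB zinc finger factors of the Broad complex, was at 71.9 and 47.9 CPM in polysome 1 and 3, against 58.0 and 171 CPM in input 1 and 3. Its log2 fold change was -0.93 ± 0.56, and 0.045 without input 3. Eip74EF (FBgn0000567, chromosome 3L from 17558672 to 17619325), an ETS-domain factor, was at 29.2 and 32.0 CPM in the polysomes, against 27.7 and 64.7 CPM in input 1 and 3. Here too 3 libraries were alike and input 3 stood above them, with a log2 fold change of -0.59 ± 0.56, and 0.14 without input 3.

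Eip78C (FBgn0004865, chromosome 3L from 21226609 to 21266503), a nuclear receptor gene of an early puff, was close to the limit of detection and did not pass the count filter. It had 0 and 13 counts in polysome 1 and 3, against 22 and 5 counts in input 1 and 3. The count of 0 in polysome 1 allows up to 3 counts, or 0.142 CPM at that depth. The exact Poisson 95% intervals were 6.92 to 22.2 counts for polysome 3, 13.8 to 33.3 for input 1 and 1.62 to 11.7 for input 3. Input 1 held more than the other libraries, and a difference between the fractions was not detectable at this depth.

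Of the nuclear receptor genes that act later in the cascade, ftz-f1 varied most between libraries in absolute level. ftz-f1 (FBgn0001078, chromosome 3L from 18750607 to 18801309), a competence factor for later hormone pulses, was at 79.3 and 114 CPM in polysome 1 and 3, against 79.8 and 236 CPM in input 1 and 3, with a log2 fold change of -0.71 ± 0.54, and 0.27 without input 3. A long non-coding RNA on the same strand covers 29.4% of its exon length, so reads in that stretch are not in its count. Hr39 (FBgn0261239, chromosome 2L from 21237250 to 21259675), a paralogue of ftz-f1, was at 25.5 and 34.5 CPM in the polysomes, against 32.9 and 46.5 CPM in the inputs (-0.40 ± 0.51). Its groups overlapped by a small margin, polysome 3 being above input 1.

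Hr4 (FBgn0264562, chromosome X from 1941940 to 2007956), an orphan nuclear receptor that holds back other genes of the cascade, was rare and uneven. It was at 5.72 and 14.8 CPM in polysome 1 and 3, against 2.82 and 11.4 CPM in input 1 and 3. In each fraction replicate 3 was the higher library, and the log2 fold change of 0.53 ± 1.18 was smaller than its error. It was 1.86 without input 3 and -0.32 without polysome 3. With unstranded counts, which were 121 and 396 in polysome 1 and 3, against 129 and 150 in input 1 and 3, it was -0.27.

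**Figure D4:**
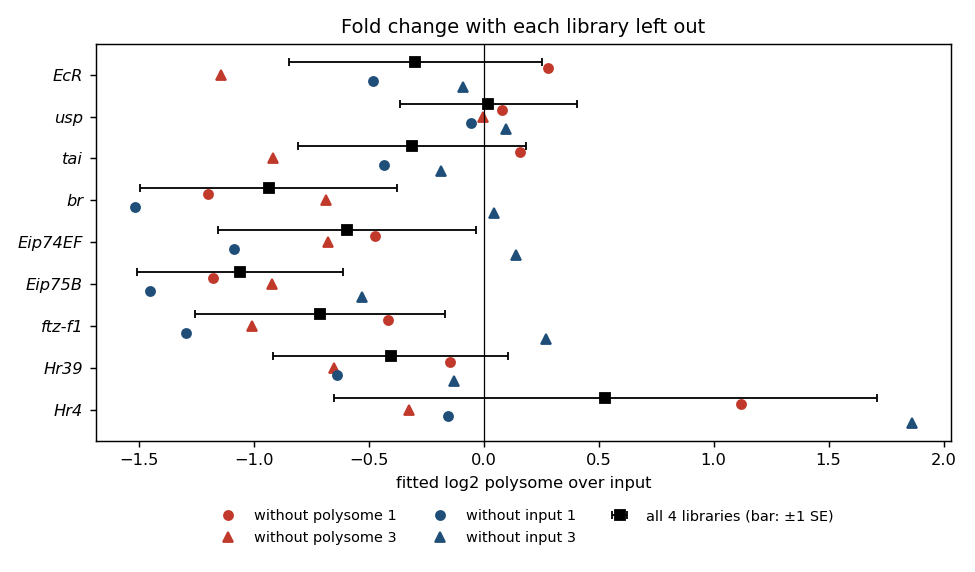
Fitted log2 polysome over input of the 9 tested genes with all 4 libraries (black squares, bars ±1 SE) and with each library left out (red for a polysome library, blue for an input library). Eip75B and Hr39 stay left of 0 in every fit, usp stays near 0, and br, Eip74EF and ftz-f1 move past 0 without input 3.

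The ratios within a replicate number differed between the 2 numbers. In replicate 1 the log2 of polysome over input CPM was -0.92 for EcR and -0.77 for tai, with counting intervals (95%, exact) of -1.09 to -0.75 and -0.93 to -0.61, while br was at 0.31, Eip74EF at 0.075 and ftz-f1 at -0.0096. In replicate 3 the receptor and its coactivator were at 0.043 and -0.012, with intervals that include 0, and br was at -1.84, Eip75B at -1.62, ftz-f1 at -1.06 and Eip74EF at -1.02. Eip75B was at -0.37 in replicate 1, with an interval of -0.45 to -0.30. In replicate 1 and 3 usp was at 0.091 and -0.047 and Hr39 at -0.36 and -0.43. Hr4 was the 1 gene above 0 in both, at 1.02 (0.43 to 1.66) and 0.38 (0.079 to 0.68). Of the 9 genes 5 were below 0 in replicate 1, where 48.0% of tested genes were, 7 in replicate 3, where 53.6% were, and 4 in both, where 26.8% were. The genes below 0 in both were tai, Eip75B, ftz-f1 and Hr39, of which tai in replicate 3 and ftz-f1 in replicate 1 had intervals that include 0. Nothing here tests which replicate is closer to other samples of these flies. Eggshell markers summed to 10240 CPM in polysome 3 against 1074 CPM in input 3, and late germline (oocyte) markers to 642 against 110 CPM. In replicate 1 these sums were 2457 against 1038 CPM and 86.7 against 79.3 CPM. The part of such RNA in the ratios of replicate 3 was not tested.

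**Figure D5:**
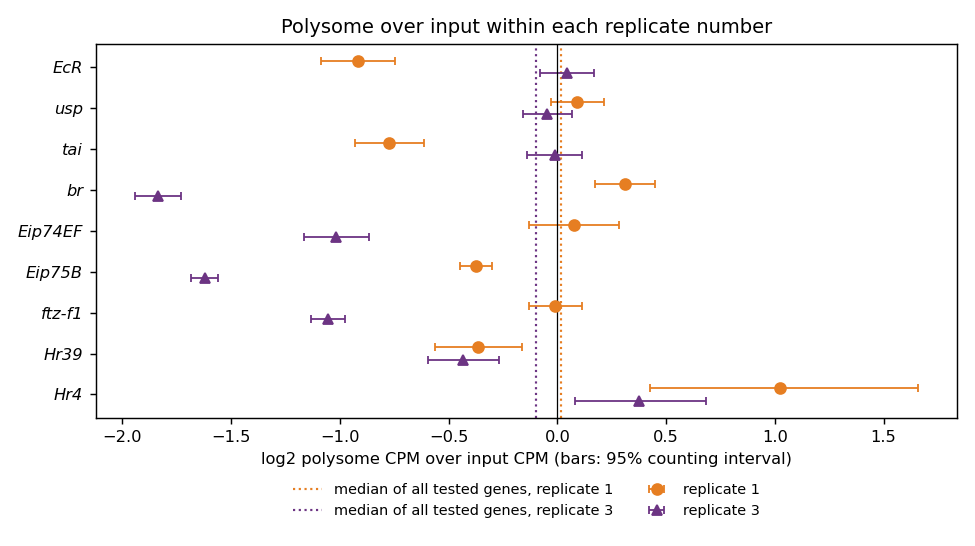
Log2 polysome CPM over input CPM within replicate 1 (orange circles) and replicate 3 (purple triangles) for each tested gene, with 95% counting intervals, and the median of all tested genes as dotted lines. EcR and tai are low in replicate 1 alone, br, Eip74EF and ftz-f1 are low in replicate 3 alone, and Eip75B is low in both.

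Translational efficiency, the study's own scale, was log2 of (polysome TPM + 1) over (input TPM + 1), averaged over the 2 replicates. As in the fit, it was lowest for Eip75B and highest for Hr4. It was -0.72 ± 0.66 (SE, n = 2) for Eip75B, -0.45 ± 0.98 for br, -0.27 ± 0.56 for ftz-f1 and -0.20 ± 0.53 for Eip74EF. EcR was at -0.15 ± 0.37, tai at -0.11 ± 0.28 and Hr39 at -0.13 ± 0.088. usp had 0.27 ± 0.13 and Hr4 0.40 ± 0.046, the 2 genes above 0. The median over all tested genes was 0.20 on this scale, against -0.0032 for the fit, so 0 is not the middle of all genes here. The pseudocount understates the change of Hr4 and Eip78C, which are below 2 TPM. The median over the 10 genes was 0.13 in replicate 1 and -0.083 in replicate 3, against 0.32 and 0.086 over all tested genes. No test was made on these values.

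Long genes as a class also had a low median. The fitted log2 polysome over input had a median of -0.56 in the 858 genes with the longest exon length, 80.9% of them below 0, and of 0.066 in the shorter ones. In replicate 3 the median of the long genes was -0.87, in replicate 1 it was -0.15. From the longest exon length to the shortest, the log2 fold changes of the 9 tested ecdysone genes began with -0.93 for br (20201 bases). Then came 0.53 for Hr4, -1.06 for Eip75B, -0.31 for tai, -0.30 for EcR and -0.59 for Eip74EF. Last were -0.71 for ftz-f1, -0.40 for Hr39 and 0.020 for usp (3038 bases). All 8 muscle sheath markers had a negative fold change. Of these, 6 were lower in polysome 3 than in polysome 1, while bt, at 133 and 228 CPM in polysome 1 and 3, and sls, at 54.6 and 128 CPM, were lower in polysome 1. The part of length and of muscle RNA in the values of the ecdysone genes was not tested.

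The genes around the receptor were read from 6 lists of 65 genes, of which 51 were tested. By edgeR's quasi-likelihood test 0 of 51 had an adjusted p under 0.05 (0% of all tested genes), 2 had an unadjusted p under 0.05 (4.68%), and DESeq2 called 0 (0.463%). For ecdysone synthesis 5 of 11 tested genes were above 0 and 6 below on the log2 scale, and their median was -0.18, or 0.16 without polysome 3 and 0.30 with unstranded counts. The zinc finger gene woc was the most abundant in input per length, at 52.2 and 59.1 TPM, and spok had no counts. sro, an oxidoreductase gene of the pathway, had 384 and 214 counts in polysome 1 and 3, against 1 and 33 counts in input 1 and 3 (3.10 ± 1.63). mld, a regulator of synthesis genes, was at 92.4 and 117 CPM in the polysomes, against 83.8 and 201 CPM in the inputs (-0.44 ± 0.48).

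Of the 4 genes of hormone transport and inactivation, 3 passed the count filter. The importer gene Oatp74D was at 105 and 25.8 CPM in polysome 1 and 3, against 82.0 and 91.1 CPM in input 1 and 3 (-0.40 ± 0.63), so that polysome 3 alone was low. Without polysome 1, where polysome 3 alone stands for the fraction and 7.24% of genes were called, its log2 fold change was -1.70 (adjusted p = 0.0439 by edgeR's quasi-likelihood test). The transporter gene Atet (0.49 ± 0.48) and Cyp18a1, which encodes an enzyme that inactivates the hormone, were the others. Cyp18a1 was at 97.2 and 83.9 CPM in the polysomes, against 66.5 and 111 CPM in the inputs, the most abundant of the list per length in input (33.0 and 56.6 TPM).

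Coregulators of EcR and Usp had 10 negative and 7 positive values of 17, with a median of -0.38, and in 4 of them the polysome values were both under the inputs (18.1% of tested genes), in 1 both over (17.2%). Leaving out polysome 1 gave a median of -0.057, leaving out input 1 gave -0.69 and leaving out input 3 gave 0.0057. E(bx), a subunit of a chromatin remodeller, was at 126 and 261 CPM in polysome 1 and 3, against 258 and 441 CPM in input 1 and 3 (-0.85 ± 0.50). HDAC1, a histone deacetylase gene, went the other way, with 164 and 175 CPM in the polysomes against 97.3 and 115.2 CPM in the inputs (0.67 ± 0.37), and these groups did not overlap. TP53INP, a coactivator gene, had the highest input level of the list, 105 and 175 TPM in input 1 and 3.

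Among 12 other response genes tested, 6 were positive and 6 negative, with a median of 0.044. That median had no stable sign, at -0.83 without polysome 1, -0.27 without polysome 3, -0.40 without input 1, 0.27 without input 3 and -0.41 with the replicate block. chinmo, a BTB zinc finger gene, had the smallest p, at 6.62 and 11.2 CPM in polysome 1 and 3, against 37.5 and 66.0 CPM in input 1 and 3. Both polysome values were well below both inputs, with a log2 fold change of -2.54 ± 0.61. Its adjusted p by edgeR's quasi-likelihood test was 0.956 and over the alternatives lay between 0.00454, without polysome 3, and 1.00, without input 3. It was 0.0240 without polysome 1 and 0.0568 with the replicate block, and with no count filter it was 0.0229. Eip93F, which encodes the late factor E93 and is named here after its values were seen, was at 33.4 and 79.0 CPM in the polysomes, against 88.3 and 264 CPM in the inputs (-1.65 ± 0.63). By edgeR's quasi-likelihood test its adjusted p was 0.956, and it passed without polysome 3 (-2.41, adjusted p = 0.00807) and with no count filter (0.0344). It did not pass without polysome 1 (-1.10, adjusted p = 0.221), without input 1 (-2.24, 0.389) or without input 3 (-0.65, 1.00). Like br and ftz-f1 it was high in input 3, 1.58 above input 1 on the log2 scale. Cth, a metabolic gene induced by ecdysone in cultured cells, was at 89.6 and 99.1 CPM in the polysomes, against 63.5 and 51.7 CPM in the inputs (0.71 ± 0.40), and was the most abundant of the list in input (65.1 and 54.5 TPM).

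Of 14 other nuclear receptor genes 7 were tested, 4 positive and 3 negative with a median of 0.010. Hr78 was the most abundant of them in input (28.7 and 45.7 TPM), at -0.050 ± 0.46. Hnf4 was at 0.26 ± 0.47, and svp, at 32 and 0 counts in the polysomes against 70 and 27 counts in the inputs, at -2.61 ± 2.66. Hr38, a nuclear receptor that can also pair with Usp, had no counts in any library. The juvenile hormone receptor genes Met and gce, whose hormone acts beside ecdysone in the ovary, were lower in both polysome libraries than in both inputs for Met, with 17.2 and 13.9 CPM against 28.2 and 45.3 CPM (-1.24 ± 0.57), and for gce, with 84.4 and 43.6 CPM against 84.6 and 142 CPM (-0.82 ± 0.48). For gce polysome 1 and input 1 were nearly equal, and 18.1% of all tested genes had both polysome values below both inputs. gce was also the more abundant of the list in input, at 22.1 and 38.0 TPM, and Kr-h1, their target gene, was at 0.13 ± 1.46.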

How the data were processed

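Reads were mapped to dm6 with STAR 2.6.1c (submitters' processing notes), whose raw gene counts, unstranded and for either strand, the authors deposited without normalization. The fourth column, which fits the directional kit, held 95.3% to 97.1% of strand-assigned counts and was used. Poly(A) RNA was fragmented for 13 min. TRIzol was used for input and phenol-chloroform for polysome RNA, so extraction cannot be told apart from fraction. Reads naming no gene (10.8% to 42.6% of reads) stayed out of library sizes and tests. Genes came from the Ensembl annotation of the same assembly, which held 17561 of 17699 identifiers, with 5 list symbols renamed by hand and 3 unmatched. No sequence is printed.

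Polysome was tested against input with edgeR 4.0.16 in R 4.3.3 (TMM factors, filterByExpr, quasi-likelihood F test, no covariate, Benjamini-Hochberg adjustment over 9038 genes). The SE came from the test statistic. CPM are TMM-scaled, and TPM use summed exon length. The fit was run on simulated data with much less spread between libraries than these have (common biological coefficient of variation 0.706). That run therefore does not show what the fit can detect here. Counting intervals (95%, exact conditional binomial or Poisson) and the limit of 3 counts cover counting error only. The labels do not say that replicates came from separate flies, and p-values then cover the spread between libraries, which may be technical. The study compared polysomes with corresponding input lysates, so a shared number was taken as a shared lysate. Deviations of same-numbered libraries correlated at r = -0.060 over 9038 genes. This rests on a single difference per fraction, and polysome 3 stood apart from the other libraries, so the value cannot show whether lysates were shared. Members and lists were chosen with earlier results of these data known. The genes named beside the 10 were, per list, the smallest p in each direction and the highest input TPM, and the 3 nearest profiles to EcR and usp. spok, Hr38, Eip93F and PIG-K, the comparison of long with short genes and the marker values shown were chosen after values were seen. Alternatives were DESeq2 1.42.0 on the same genes, RLE and upper-quartile factors, no filter, at least 50 counts in 2 libraries, unstranded counts, a replicate block, each library left out and, for translational efficiency, a pseudocount of 0.1 TPM or CPM per kb.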

Additional observations from a re-analysis of the deposited data

Results flagged for a closer look

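Reads on the strand opposite to the gene were not used in the comparisons and passed the 3 counts that a count of 0 allows at 5 of the 10 genes. Hr4 had 76 and 59 such reads in polysome 1 and 3, against 154 and 255 in input 1 and 3, or, scaled as CPM, 3.60 and 2.43 against 14.97 and 23.5, so the fractions did not overlap. On its own strand Hr4 had 121 and 360 reads in the polysomes, against 29 and 124 in the inputs. Scaled for depth these were 5.72 and 14.8 CPM against 2.82 and 11.4 CPM, so on that strand the fractions overlapped. PIG-K, which lies on the opposite strand and shares 46 exon bases with Hr4, was at 60.2 and 20.3 CPM in the polysomes, against 49.97 and 39.0 CPM in the inputs, and its part in these reads was not tested. The highest opposite-strand count in any library was 12 for usp, 21 for br, 23 for ftz-f1 and 15 for Hr39.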

How the results depend on the processing

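None of the 9 tested ecdysone genes was called in any of the 11 alternative fits, and Eip75B and Hr39 kept a negative fold change in all of them. The count of calls over all genes, 0, was 41 by DESeq2, 104 with no count filter and 47 with the replicate block, which called 0 of the ecdysone genes and gave them a median of -0.44, and it ran from 0 to 695 with a library left out, highest without polysome 1. Each of those fits assumes that the lone library of a fraction varies like the other fraction. Of the genes of the surrounding lists, 2 were called with no count filter, chinmo and Eip93F, and 0 to 2 with a library left out, chinmo and Oatp74D without polysome 1 and chinmo and Eip93F without polysome 3. The median fold change of the 9 genes, -0.40, ran from -0.68 to 0.045 with a library left out, above 0 without input 3. With a library left out EcR ran from -1.14 to 0.28, usp from -0.056 to 0.10, tai from -0.92 to 0.16, br from -1.52 to 0.045, Eip74EF from -1.08 to 0.14, ftz-f1 from -1.30 to 0.27 and Hr4 from -0.32 to 1.86. Of the list medians, with a library left out, synthesis ran from -0.069 to 0.16, transport from -0.30 to 0.44, coregulators from -0.69 to 0.0057, other response genes from -0.83 to 0.27, other nuclear receptors from -0.20 to 0.10 and juvenile hormone receptors from -1.32 to -0.40. With unstranded counts usp was at -0.0056 and Hr4 at -0.27. The median translational efficiency, -0.17, was -0.35 with CPM per kb, and 0.13 without replicate 3 and -0.083 without replicate 1. The replicate block changed no call on the ecdysone genes or the lists. The cause of these changes was not tested, beyond fewer samples in the fits with a library left out. With 2 libraries per fraction and these differences between them, Eip78C was too low for the count filter of the main fit. With no count filter its log2 fold change was -2.25 ± 4.82 (SE). For Hr4 the counting intervals within each replicate exclude 0 while its SE between libraries was 1.18.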
